A study of Mus musculus with 15 samples.

Results

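The mRNA levels of 10 components and regulators of mTORC1 were examined, chosen by name among the 55421 genes of the count files. Mtor and Rptor encode subunits of the complex, Tsc1, Tsc2 and Rheb its upstream switch, and Ddit4, Sesn1, Sesn3, Flcn and Fnip1 regulators that respond to stress and nutrients. RNA was sequenced from CD4+ T cells of C57BL/6 background that had been sorted from the spleen or the mesenteric lymph nodes (mLN) of Rag2-/- hosts 6 weeks after naive donor cells were transferred, a model of T cell transfer colitis. In all donors Prkaa1, which encodes the catalytic subunit AMPKα1, was floxed on both alleles, and the mice were 6 to 8 weeks old by the general statement of the study's methods. WT donors (Prkaa1 fl/fl) had no Cre, whereas KO donors also carried CD4-Cre, which acts in developing thymocytes and therefore deletes in CD8+ as well as CD4+ T cells. The hosts lack T and B cells of their own but keep myeloid, NK and erythroid cells. Spleen is represented by 4 samples of each genotype, and mLN by 3 WT and 4 KO samples.

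mTORC1 is a kinase complex that promotes protein and lipid synthesis when growth factors, amino acids and energy are sufficient. Growth factor signals act through the TSC1–TSC2 complex, which switches off the GTPase RHEB, whereas amino acids act through the RAG GTPases at the lysosome, and AMPK restrains the complex by phosphorylating TSC2 and the Raptor protein. Much of this control is exerted on proteins, by phosphorylation and by location, and is not seen in mRNA levels. T cells raise mTORC1 activity on activation, and the complex is required for their growth and effector differentiation.

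Between 9363940 and 11283439 reads per sample were counted on genes, and each of the 10 genes was read in each sample, with 145 counts at the least (Sesn1) and 5797 at the most (Ddit4). All 10 passed the filter on low counts in each comparison. Levels are given as CPM, the count divided by the reads on genes of that sample and multiplied by 1000000, as mean ± SD over samples. Prkaa1 checked the labels: it stood at 51.1 ± 3.71 CPM in WT spleen (n = 4), 20.1 ± 1.38 in KO spleen (n = 4), 53.3 ± 6.57 in WT mLN (n = 3) and 27.7 ± 5.37 in KO mLN (n = 4), and no KO sample reached the level of a WT sample. The T cell markers Cd3e, Cd3d, Cd3g, Cd4, Cd2 and Cd28 summed to 4583 to 5850 CPM. The B cell list summed to at most 7.32 CPM in any sample, and its marker Ms4a1 had no counts in mLN. In sorted bulk cells, fewer cells of one state and less RNA per cell cannot be told apart.

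Per kilobase of exon, the 10 genes spanned a wide range of levels, and their order was led by the same genes in each group. Ddit4, which encodes REDD1, a stress-induced activator of TSC, was the highest, at 211 ± 85.1 CPM per kb in WT spleen (n = 4) and 99.8 ± 25.6 CPM per kb in KO mLN (n = 4). Rheb, the direct activator of mTORC1, came next, at 17.9 ± 0.901 CPM per kb in WT spleen and 17.9 ± 0.993 in WT mLN (n = 3). Flcn, the folliculin tumour suppressor that acts on RAGC and RAGD, followed with 14.04 ± 2.32 in WT spleen, and overlapped there with Sesn3, at 11.3 ± 3.07. Tsc2, Fnip1, Sesn1 and Rptor formed a group of lower level, from 6.10 ± 0.622 (Tsc2) to 4.68 ± 0.117 CPM per kb (Rptor) in WT spleen, in which each gene overlapped with the next. Mtor, the kinase, and Tsc1 were the lowest, at 3.76 ± 0.391 and 3.03 ± 0.389 CPM per kb in WT spleen. In mLN Mtor was below Tsc1, with 1.95 ± 0.348 for Tsc1 and 1.77 ± 0.154 for Mtor in WT, and their samples overlapped.

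**Figure D1:**
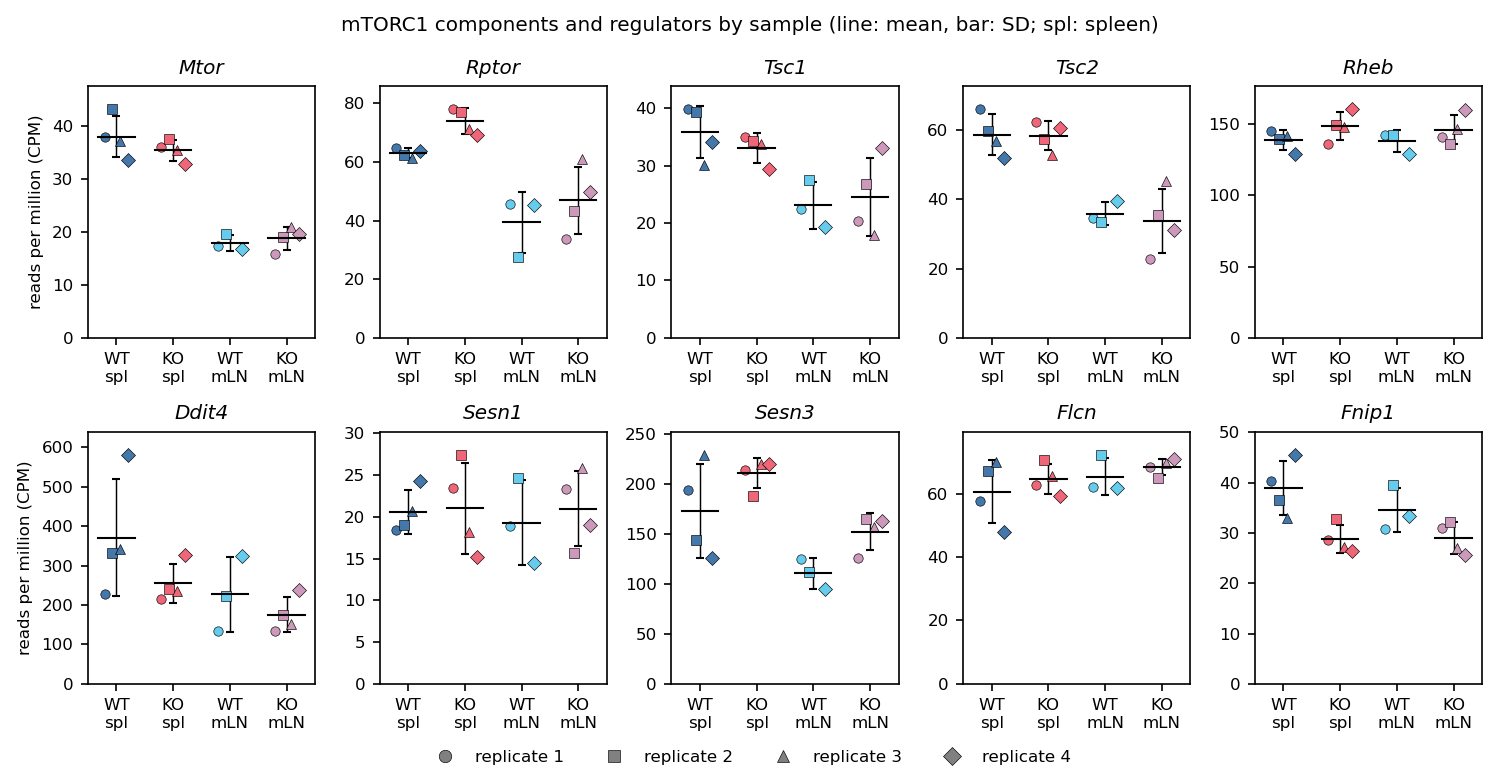
CPM on linear axes from 0 of the 10 genes in each sample, with a panel per gene; symbols give the replicate number, lines the group mean and bars the SD. Mtor lay at 32.8 to 43.3 CPM in all spleen samples and at 15.8 to 20.9 CPM in all mLN samples, whereas Rheb lay at 129 to 161 CPM throughout.

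To ask whether loss of AMPKα1 altered these transcripts, KO was compared with WT within each organ. None of the 10 genes passed an adjusted p of 0.05 in edgeR's quasi-likelihood test, in spleen or in mLN, where 1.3% and 0.641% of all genes tested passed. At an unadjusted p under 0.05 there were 2 of 10 in spleen, Rptor and Fnip1, against 20.5% of all genes, and 1 of 10 in mLN, Sesn3, against 15.7%. DESeq2 called 2 in spleen (Rptor and Fnip1), beside 799 of 35256 genes, and 1 in mLN (Sesn3), beside 561 of 33681. Without its filter on low counts, edgeR called 3 in spleen (Ddit4, Sesn3 and Fnip1), beside 1422 of 35256 genes. In mLN it then called 2 (Ddit4 and Sesn3), beside 913 of 33681. The median log2 fold change of the 10 genes was 0.023 in spleen and 0.065 in mLN, beside −0.0041 and −0.0038 over all genes tested.

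Rptor encodes Raptor, the scaffold that brings substrates to the kinase. In spleen it stood at 64.8, 62.4, 61.3 and 63.9 CPM in the 4 WT samples and at 78.1, 77.1, 71.3 and 69.3 CPM in the 4 KO samples. Each KO sample was above each WT sample, and 12% of all genes had groups that were separate in one direction or the other. The log2 fold change was 0.24 (SE 0.060, 95% interval 0.11 to 0.38, edgeR adjusted p = 0.0706), and DESeq2 gave an adjusted p of 0.0304. In mLN the values spread further, over 45.6, 27.5 and 45.3 CPM in WT and 33.7, 43.2, 60.9 and 49.9 CPM in KO. There the groups overlapped, and the log2 fold change was 0.23 (SE 0.22, 95% interval −0.26 to 0.72, edgeR adjusted p = 0.673). An antisense gene, Rptoros, shares 84 bases of exon with Rptor, and since the files do not state strand its reads cannot be told apart from those of Rptor over that stretch.

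Fnip1 encodes a partner of folliculin that is itself bound and phosphorylated by AMPK. In WT spleen it measured 40.3, 36.6, 33.0 and 45.5 CPM, and in KO spleen 28.6, 32.8, 27.3 and 26.5 CPM. The groups were separate by a narrow margin, with the lowest WT sample at 33.0 and the highest KO sample at 32.8 CPM. The log2 fold change was −0.42 (SE 0.11, 95% interval −0.65 to −0.18, edgeR adjusted p = 0.0746, DESeq2 adjusted p = 0.0273). In mLN the WT samples had 30.8, 39.5 and 33.4 CPM and the KO samples 31.0, 32.2, 27.1 and 25.7 CPM, with overlap and a log2 fold change of −0.26 (SE 0.15, edgeR adjusted p = 0.434).

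Sesn3, a sestrin that restrains mTORC1 through GATOR2 and that is a known target of FoxO factors, had the opposite sign. In mLN it stood at 125, 111 and 94.8 CPM in WT and at 125, 164, 156 and 163 CPM in KO. The groups did not overlap in CPM (highest WT sample 124.9, lowest KO sample 125.3), as for 14.4% of all genes, but they overlapped once the libraries were scaled by TMM. The log2 fold change was 0.45 (SE 0.12, 95% interval 0.18 to 0.72, edgeR adjusted p = 0.125, DESeq2 adjusted p = 0.0214). The 2 CD8 T cell markers, Cd8a and Cd8b1, summed to 18.9 to 28.2 CPM in KO mLN and 7.18 to 11.6 CPM in WT mLN, without overlap. The separation lay in Cd8a, with 60, 86 and 3 counts in WT mLN and 194, 179, 167 and 258 in KO mLN. Cd8b1 overlapped, with 37, 31 and 69 counts in WT and 16, 76, 37 and 58 in KO. The 5 dendritic cell markers summed to 8.60 to 17.4 CPM in WT mLN and 15.9 to 27.9 CPM in KO mLN, with overlap. Siglech was separate, with 4, 16 and 1 counts in WT and 44, 89, 52 and 21 in KO. So was Itgax, with 56, 18 and 42 in WT and 96, 110, 102 and 65 in KO. Flt3 and Xcr1 overlapped, and Cd209a had no counts in mLN. The part of the CD8 and dendritic cell markers in the genotype differences in mLN was not tested. Sesn3 in spleen ranged widely over the 4 WT samples, at 194, 144, 229 and 126 CPM. The KO values lay within that range, at 214, 188, 219.7 and 219.7 CPM. The log2 fold change was 0.29 (SE 0.18, edgeR adjusted p = 0.380).

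Ddit4 had the largest fitted difference between genotypes in spleen and the widest spread among samples. In spleen it read 228, 332, 343 and 581 CPM in WT replicates 1 to 4, and 215, 241, 236 and 326 CPM in KO replicates 1 to 4. In mLN it read 134, 224 and 324 CPM in WT replicates 1, 2 and 4, and 135, 175, 153 and 238 CPM in KO replicates 1 to 4. Replicate 1 was the lowest and replicate 4 the highest in each of the 4 groups, and the WT and KO samples overlapped in both organs. The log2 fold changes were −0.52 in spleen (SE 0.24, 95% interval −1.06 to 0.014, edgeR adjusted p = 0.255) and −0.39 in mLN (SE 0.26, 95% interval −0.95 to 0.18, edgeR adjusted p = 0.523). Without WT spleen replicate 4 the value in spleen was −0.23. The erythroid markers Hba-a1, Hbb-bs and Alas2 stood apart in replicates 3 and 4 of WT spleen and replicate 4 of WT mLN, and the ranges of the genotypes overlapped in both organs. In spleen their summed level ran from 70.3 to 1437 CPM for WT and from 30.8 to 78.1 CPM for KO. The mLN sums ran from 17.4 to 615 CPM for WT, around a median of 24.4, and from 13.5 to 54.9 CPM for KO, around a median of 36.5. Their part in the Ddit4 values was not tested.

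The remaining genes differed little between genotypes. For Mtor the log2 fold change was −0.086 in spleen (95% interval −0.28 to 0.11) and 0.061 in mLN (−0.30 to 0.42). Tsc1 and Tsc2, whose products form the brake on RHEB, had values of −0.10 (−0.32 to 0.12) and 0.0054 (−0.19 to 0.20) in spleen, and 0.078 (−0.41 to 0.56) and −0.11 (−0.54 to 0.33) in mLN. Rheb had the narrowest interval in mLN, −0.13 to 0.27 around 0.070, and in spleen its value was 0.11 (−0.054 to 0.28). Sesn1, a sestrin induced by p53, had 0.040 in spleen (−0.34 to 0.42) and 0.11 in mLN (−0.39 to 0.61), and Flcn had 0.10 (−0.16 to 0.36) and 0.058 (−0.16 to 0.28). Differences within these intervals are not excluded by 3 or 4 samples per group.

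**Figure D2:**
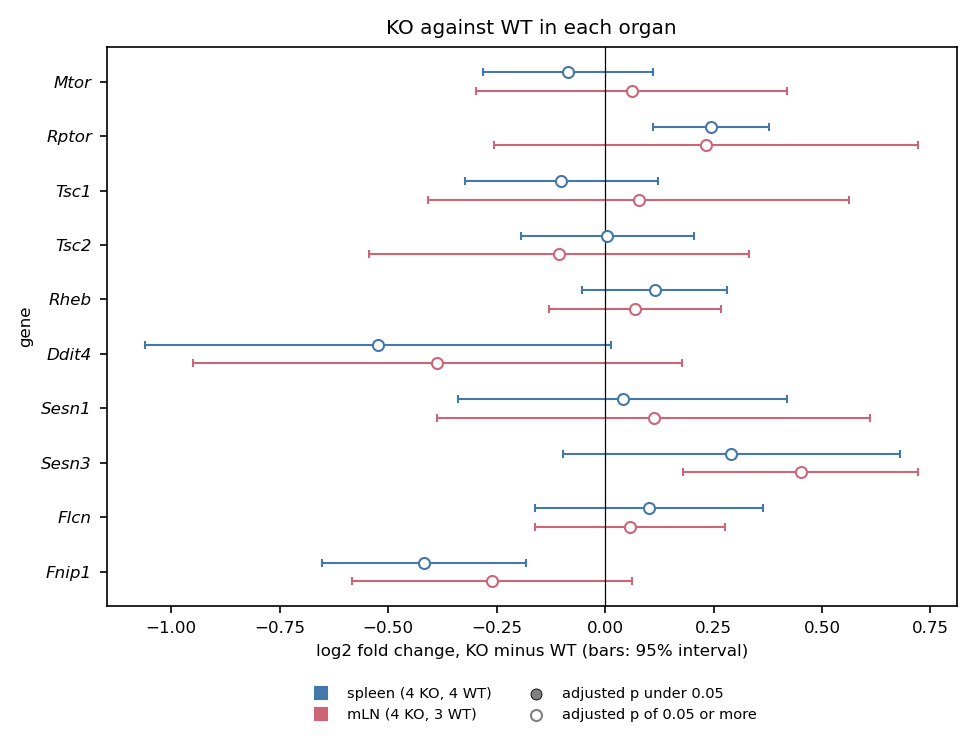
Log2 fold change of KO against WT (x axis, KO minus WT) for each of the 10 genes (y axis) in spleen and mLN, with the 95% interval of the edgeR fit as bars; open circles did not pass an adjusted p of 0.05. All 20 values are open, and the intervals leave 0 outside for Rptor (0.24) and Fnip1 (−0.42) in spleen and for Sesn3 (0.45) in mLN.

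The genotype difference was then compared between the organs as an interaction over all 15 samples. They were taken as independent, though spleen and mLN samples may come from the same mice. None of the 10 genes passed in edgeR's test or in DESeq2, and none had an unadjusted p under 0.05. Nor did any of the 15438 genes tested pass in edgeR (0.0%), while 652 genes (4.22%) had an unadjusted p under 0.05. The interaction values of the 10 genes lay between −0.11 (Tsc2) and 0.18 (Tsc1) on the log2 scale, with the widest 95% interval for Ddit4 (−0.71 to 0.98).

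More of the genes were called between the organs, in tests that took the spleen and mLN samples as independent. In WT cells, 4 of the 10 genes were lower in mLN than in spleen, Mtor, Rptor, Tsc1 and Tsc2, and none was higher, with 20.5% of all genes called in either direction and 10.8% called lower. In KO cells, 5 were lower, Mtor, Rptor, Tsc2, Ddit4 and Sesn3, where 25.3% of all genes were called and 13.9% were called lower. Markers of other cells differed between the organs too. The 6 myeloid markers summed to 128 to 353 CPM in spleen and 49.9 to 210 CPM in mLN. The CD8 markers summed to 2.56 to 5.11 CPM in WT spleen and 1.61 to 4.34 CPM in KO spleen, under their mLN values above. Taken alone, Cd8b1 overlapped between the organs in both genotypes, and Cd8a overlapped in WT. The part of these markers in the organ differences was not tested. The median log2 fold change of the 10 genes was −0.61 in WT and −0.45 in KO, beside 0.0 and 0.0073 over all genes tested. With the replicate number as a block, which the correlation of same-numbered samples allows in WT, 6 genes were lower in WT mLN, Ddit4 (log2 fold change −0.68, edgeR adjusted p = 0.000224) and Sesn3 (−0.42, edgeR adjusted p = 0.00385) in addition to the 4. Over all genes tested in WT, 4351 of 14515 were called with the block, 2126 of them higher.

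Mtor, the kinase subunit shared by mTORC1 and mTORC2, had the largest fitted difference of the 10 genes in both genotypes. It stood at 38.0, 43.3, 37.2 and 33.7 CPM in WT spleen and at 17.3, 19.7 and 16.7 CPM in WT mLN. In KO it stood at 36.1, 37.5, 35.5 and 32.8 CPM in spleen and at 15.8, 19.0, 20.9 and 19.6 CPM in mLN. No mLN sample came near a spleen sample; among all genes, 31.5% had separate organs in WT and 28.7% in KO. The level was 2.07-fold lower in mLN in WT (log2 fold change −1.05, SE 0.12, edgeR adjusted p = 0.000726) and 1.88-fold lower in KO (−0.91, SE 0.11, edgeR adjusted p = 0.000173), and it was called in 7 of 7 and 8 of 8 fits that left out a sample.

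Rptor and Tsc2 were lower in mLN in both genotypes as well. The Rptor values above, of 61.3 to 64.8 CPM in WT spleen against 27.5 to 45.6 CPM in WT mLN, gave a log2 fold change of −0.63 (SE 0.17, edgeR adjusted p = 0.0274), and those of KO, 69.3 to 78.1 against 33.7 to 60.9 CPM, gave −0.66 (SE 0.14, edgeR adjusted p = 0.00639). The organs did not overlap in either genotype, but the mLN samples were more spread than the spleen samples. The call in WT was lost without WT spleen replicate 1, 2 or 3, with values of −0.62 to −0.65. Tsc2 read 66.2, 59.9, 56.9 and 51.8 CPM in WT spleen and 34.8, 33.4 and 39.6 CPM in WT mLN. In KO it read 62.5, 57.6, 52.9 and 60.5 CPM in spleen and 22.9, 35.5, 45.2 and 31.2 CPM in mLN. Its log2 fold changes were −0.67 (SE 0.11, edgeR adjusted p = 0.00433) and −0.79 (SE 0.16, edgeR adjusted p = 0.00474). The exons of Tsc2 overlap those of Pkd1 on the opposite strand over 693 bases, so that the reads there are uncertain too.

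Tsc1 was called in WT only, though this does not show that the genotypes differed. It stood at 39.9, 39.3, 30.2 and 34.1 CPM in WT spleen and 22.5, 27.5 and 19.3 CPM in WT mLN, without overlap (log2 fold change −0.60, SE 0.15, edgeR adjusted p = 0.0210). This call was lost without replicate 1 or 2 of WT spleen or replicate 1 or 4 of WT mLN, with values of −0.49 to −0.59. In KO the 4 spleen samples had 35.1, 34.2, 33.7 and 29.3 CPM, and the mLN samples 20.4, 26.8, 17.9 and 33.1 CPM. Replicate 4 of KO mLN lay within the range of spleen, and the value was −0.43 (SE 0.17, edgeR adjusted p = 0.0886), or −0.60 without that replicate (edgeR adjusted p = 0.0133). The interaction for Tsc1 was 0.18 (SE 0.24, edgeR adjusted p = 0.9998).

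Ddit4 and Sesn3 were called in KO only, with interactions of 0.13 (SE 0.40) and 0.16 (SE 0.24) and an edgeR adjusted p of 0.9998 for both. Ddit4 had a log2 fold change of −0.67 in WT (SE 0.34, edgeR adjusted p = 0.194) and −0.54 in KO (SE 0.17, edgeR adjusted p = 0.0366), and its organs overlapped in both genotypes. Its mLN sample was lower than the spleen sample of the same number in 3 of 3 WT pairs, and also for every replicate number in KO. The call of Ddit4 in KO was lost in 6 of 8 fits that left out a sample, all but those without KO spleen replicate 1 or KO mLN replicate 4, with values of −0.39 to −0.58 on the log2 scale. Sesn3 had −0.62 in WT (SE 0.21, edgeR adjusted p = 0.0666) and −0.47 in KO (SE 0.092, edgeR adjusted p = 0.00362). The KO organs were separate, at 188 to 220 CPM in spleen and 125 to 164 CPM in mLN. The WT organs were separate in CPM (lowest spleen sample 125.9, highest mLN sample 124.9) and overlapped after TMM scaling.

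Rheb, Sesn1, Flcn and Fnip1 were called in neither genotype. Rheb had log2 fold changes of 0.032 in WT (95% interval −0.15 to 0.22) and −0.025 in KO (−0.20 to 0.15), with signs that turned under other settings. Flcn had 0.14 (−0.16 to 0.45) and 0.088 (−0.085 to 0.26). Sesn1, the gene with the fewest reads, had −0.056 (−0.48 to 0.36) and 0.0037 (−0.44 to 0.45), and Fnip1 had −0.13 (−0.43 to 0.16) and 0.014 (−0.24 to 0.27).

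**Figure D3:**
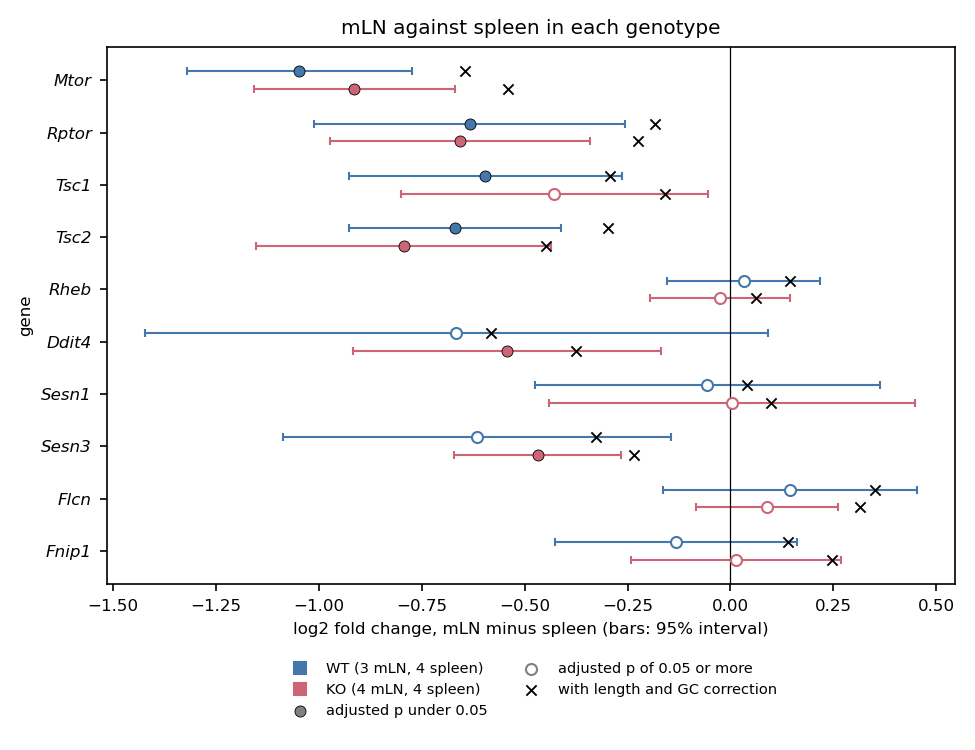
Log2 fold change of mLN against spleen (x axis, mLN minus spleen) for each of the 10 genes (y axis) in WT and KO, with 95% intervals; filled circles passed an adjusted p of 0.05 and crosses give the value after a correction for transcript length and GC content. Mtor lies farthest from 0 (−1.05 and −0.91), and each cross lies to the right of its circle, at −0.64 and −0.54 for Mtor. The median of all genes also moved up with the correction, to 0.071 in WT and 0.087 in KO.

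The organ difference moved with transcript length over all genes. Genes with transcripts under 1 kb had a median log2 fold change of 0.197 in WT and 0.151 in KO, and genes over 6 kb had −0.247 and −0.202. Of the genes over 6 kb, 31.2% were called in WT and 35.6% in KO. Mtor (8564 bases), Rptor (6594), Tsc1 (7702), Tsc2 (6266), Sesn3 (9125) and Fnip1 (6255) all fall in that class, whereas Ddit4, at 1755 bases, does not. With a correction for length and GC content, chosen after seeing the data, Mtor alone was called lower in WT (log2 fold change −0.64, edgeR adjusted p = 0.00713), and Mtor (−0.54, edgeR adjusted p = 0.00283) and Tsc2 (−0.45, edgeR adjusted p = 0.0387) were in KO. Rptor was then at −0.18 in WT and −0.22 in KO, Tsc2 at −0.30 in WT and Tsc1 at −0.29 in WT, none of them called, and Ddit4 at −0.38 and Sesn3 at −0.23 in KO were no longer called either. Flcn, which was not called before, was higher in KO mLN after the correction (0.32, edgeR adjusted p = 0.0210). Over all genes the correction moved the median log2 fold change from 0.0 to 0.071 in WT and from 0.0073 to 0.087 in KO. With it, 2510 of 14497 genes were called in WT, 1656 of them higher, and 3293 of 14221 in KO, 2090 of them higher. Between genotypes the medians of the length classes lay between −0.052 and 0.033 on the log2 scale.

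**Figure D4:**
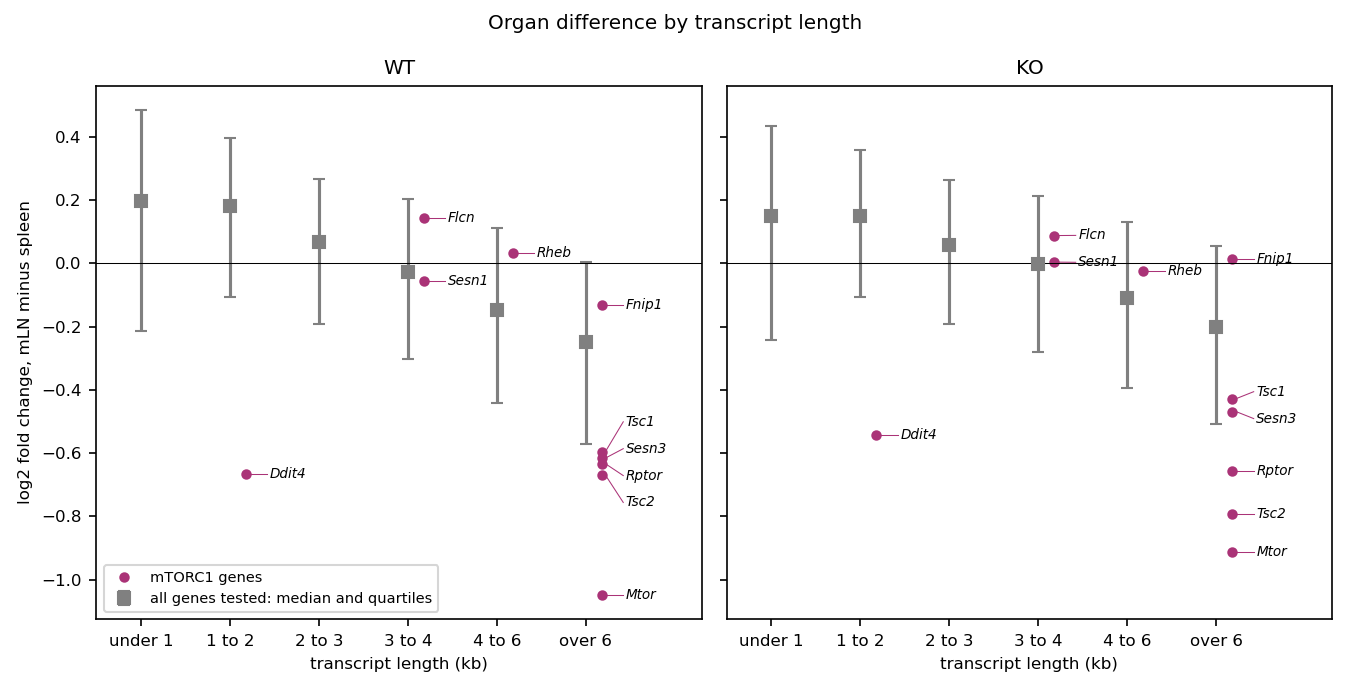
Log2 fold change of mLN against spleen (y axis) by transcript length class (x axis, kb) in WT and KO; squares and bars give the median and quartiles of all genes tested, and points the 10 genes. The median of all genes goes from 0.197 to −0.247 in WT and from 0.151 to −0.202 in KO. Mtor, Rptor, Tsc2 and Ddit4 lie below the lower quartile of their class in both genotypes, and Tsc1 and Sesn3 in WT.

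Mtor, Rptor and Tsc2 were called lower in mLN in both genotypes before the length and GC correction, and Mtor alone in both after it. The 250 bases upstream of their RefSeq start (GRCm38.p6) are shown for comparison. They were searched on both strands for CACGTG (E-box), GGGCGG (GC box), CCGGAAG (ETS), TGTTTAC (FoxO) and TGACTCA (AP-1), and matches are in capitals, written 5′ to 3′ on the strand of the gene.
Mtor, chr4:148448332-148448581, plus strand: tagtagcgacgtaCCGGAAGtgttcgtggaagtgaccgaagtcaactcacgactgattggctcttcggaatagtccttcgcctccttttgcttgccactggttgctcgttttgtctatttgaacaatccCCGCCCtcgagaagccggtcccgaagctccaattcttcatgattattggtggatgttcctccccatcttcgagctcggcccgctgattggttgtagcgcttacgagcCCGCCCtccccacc
Rptor, chr11:119602655-119602904, plus strand: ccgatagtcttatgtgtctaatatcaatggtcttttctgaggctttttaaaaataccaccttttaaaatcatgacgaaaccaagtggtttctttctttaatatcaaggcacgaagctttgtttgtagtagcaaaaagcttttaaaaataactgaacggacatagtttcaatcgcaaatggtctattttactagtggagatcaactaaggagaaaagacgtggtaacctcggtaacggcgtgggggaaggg
Tsc2, chr17:24632628-24632877, minus strand: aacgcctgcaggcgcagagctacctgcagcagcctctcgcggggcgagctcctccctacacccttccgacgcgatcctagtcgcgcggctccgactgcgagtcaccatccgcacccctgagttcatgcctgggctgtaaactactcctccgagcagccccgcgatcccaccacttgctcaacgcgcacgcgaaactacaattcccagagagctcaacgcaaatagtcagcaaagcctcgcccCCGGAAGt
Mtor holds a GC box at 2 places and an ETS match, Tsc2 holds an ETS match close to the start, and Rptor holds none of the 5. Of 32851 promoters of this length, 32.7% hold a GC box, 6.91% the ETS letters, 6.02% an E-box, 4.46% the AP-1 letters and 3.17% the FoxO letters. Of the 11 promoters of the 10 genes (Sesn1 has 2), 7 hold a GC box and 2 an E-box, those of Rheb and Fnip1, and 2 the ETS letters. The FoxO and AP-1 letters were found in 0 of the 11.

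The other genes of the mTOR pathway were read from lists of 57 genes. Between genotypes, 0 of 56 tested passed in spleen and 0 of 56 in mLN by edgeR, while 19 and 15 had an unadjusted p under 0.05 and DESeq2 called 2 and 3. Over all genes, 20.5% and 15.7% had an unadjusted p under 0.05, and DESeq2 called 799 of 35256 and 561 of 33681. Between organs, 7 were higher and 7 lower in mLN in WT (of 55 tested), and 9 were higher and 11 lower in KO (of 56 tested), beside 9.7% higher and 10.8% lower of all genes in WT, and 11.4% and 13.9% in KO. After the correction for length and GC content the split was 9 higher and 2 lower in WT, and 14 higher and 3 lower in KO. Over all genes with that correction, 1656 of 2510 calls were higher in WT and 2090 of 3293 in KO. The genes called lower had a median transcript length of 8216 bases in WT, against 1618 for those called higher, and 5784 against 2573 bases in KO.

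By role, the Rag GTPases and the Ragulator, which dock mTORC1 on the lysosome, had 3 of 10 genes higher in WT mLN (Lamtor2, Lamtor5 and Rraga) and 2 of 10 in KO mLN (Lamtor5 and Rraga), and none lower. With the length and GC correction 3 and 4 were higher, without Rraga in WT (0.26) and Lamtor5 in KO (0.21). Of 11 genes of GATOR and KICSTOR, which relay amino acid signals, 3 were called in each genotype. Depdc5 of GATOR1 was lower in both genotypes, with log2 fold changes of −0.53 and −0.57, and with the length and GC correction it was at −0.24 and −0.33 and not called in either. Among the inputs from PI3K and Akt, Pik3cd was lower in both (−0.39 in WT and −0.41 in KO), calls that were lost with the correction (−0.0028 and −0.0033). Pik3ip1 was called higher in KO mLN only (1.04), with 0.66 in WT (SE 0.42, edgeR adjusted p = 0.308). Its interaction was 0.40 (SE 0.48, edgeR adjusted p = 0.9998).

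The list of mTORC1 effectors had 3 genes higher and 2 lower of 12 in WT mLN, and 5 higher and 3 lower in KO mLN, beside 9.7% higher and 10.8% lower of all genes in WT and 11.4% and 13.9% in KO. With the length and GC correction the split was 5 higher and 0 lower in WT and 5 higher and 1 lower in KO. Calls over all genes were then 1656 higher of 2510 in WT and 2090 of 3293 in KO. In WT, 7 of the 12 had an unadjusted p under 0.05 before the correction, and DESeq2 called 5, beside 3265 of 34385 genes. Larp1, a repressor of the translation of ribosomal protein mRNAs that mTORC1 inactivates, stood at 37.8 ± 4.19 CPM in WT spleen (n = 4) and 69.4 ± 0.562 in WT mLN (n = 3), a log2 fold change of 0.91 (SE 0.10, edgeR adjusted p = 0.000701). In KO it was 35.1 ± 2.81 and 63.5 ± 3.72 CPM (n = 4 each), a log2 fold change of 0.85 (SE 0.093, edgeR adjusted p = 7.66e-05). Its transcript has 6617 bases, and with the length correction the values were 1.25 and 1.17. Rps6, the ribosomal protein that S6 kinase phosphorylates, rose from 336 ± 35.3 to 562 ± 35.6 CPM in WT (log2 fold change 0.78, edgeR adjusted p = 0.00079) and from 294 ± 11.8 to 461 ± 25.1 CPM in KO (0.65, edgeR adjusted p = 6.50e-05). Rps6kb2, an S6 kinase, was higher in both (0.39 and 0.40), and Eif4ebp2, a translation repressor under mTORC1, was lower in both (−0.44 and −0.56), and at −0.17 in WT, no longer called, and −0.32 in KO with the correction.

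**Figure D5:**
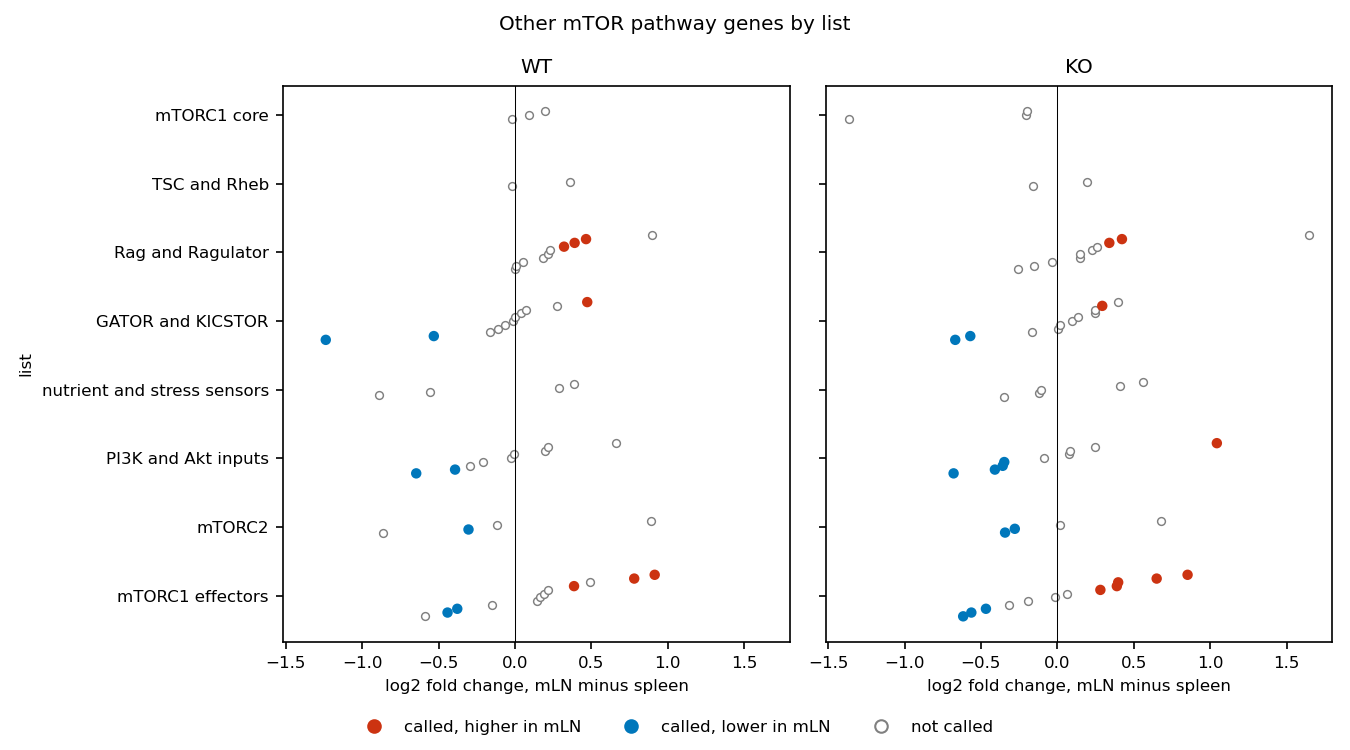
Log2 fold change of mLN against spleen (x axis) for the other mTOR pathway genes by list (y axis) in WT and KO; each point is a gene, filled where it passed an adjusted p of 0.05. The 14 called genes in WT split into 7 higher and 7 lower, and the 20 in KO into 9 and 11, with Larp1 (0.91 and 0.85) the highest called effector in both genotypes.

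Lists of target genes of factors known to control Ddit4, the sestrins or lysosomal genes were also read. In spleen, 3 of 47 tested genes passed between genotypes, beside 1.3% of all genes. Il7r, the IL-7 receptor and a FoxO target, went from 803 ± 320 CPM in WT to 284 ± 48.8 in KO (n = 4 each, log2 fold change −1.48, SE 0.26, edgeR adjusted p = 0.0391), a call kept in 1 of 8 fits that left out a sample. Ccng2 (0.63, edgeR adjusted p = 0.0370) and Trp53inp1 (0.45, edgeR adjusted p = 0.0444), targets of FoxO and p53, were higher in KO, in 3 and 1 of those 8 fits. In mLN, 2 of 47 passed, beside 0.641% of all genes. Il7r went from 1323 ± 176 CPM in WT (n = 3) to 439 ± 89.0 in KO (n = 4, log2 fold change −1.60, SE 0.15, edgeR adjusted p = 0.00314), and this call held in 7 of 7 such fits. The call was lost with the replicate number as a block, where the 1 gene called in mLN was higher in KO. Tsc22d3, which encodes the glucocorticoid-induced protein GILZ, had 218, 590 and 694 CPM in WT mLN and 120 to 170 CPM in KO mLN (log2 fold change −1.80, SE 0.29, edgeR adjusted p = 0.0326), a call kept in 1 of 7. Of the 12 FoxO targets tested, edgeR called 2 in spleen and 1 in mLN, 5 and 9 had an unadjusted p under 0.05, and DESeq2 called 3 and 5. Their median log2 fold changes were −0.22 and −0.50, with 4 positive and 8 negative values in each organ. No ATF4 or TFEB target was called by edgeR in either organ. Of the 7 glucocorticoid targets tested, edgeR called 0 in spleen and 1 in mLN, 3 and 5 had an unadjusted p under 0.05, and DESeq2 called 2 and 3, with median log2 fold changes of −0.55 and −0.59. Of the 10 p53 targets tested, edgeR called 1 in spleen and 0 in mLN, 9 and 8 had an unadjusted p under 0.05, and DESeq2 called 2 and 4, with medians of 0.40 and 0.41. Bbc3, among those at the unadjusted limit in both organs, was the 1 with a negative log2 fold change (−1.02 and −1.24). At that unadjusted limit 20.5% of all genes passed in spleen and 15.7% in mLN, and DESeq2 called 799 of 35256 genes and 561 of 33681.

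Between organs, 7 of 48 regulator targets were higher and 1 lower in WT mLN, and 7 of 47 were higher and 4 lower in KO mLN. Over all genes, 9.7% were called higher and 10.8% lower for WT, and 11.4% and 13.9% for KO. Sqstm1, an autophagy receptor and TFEB target, rose from 249 ± 16.6 CPM (n = 4) to 348 ± 19.7 CPM (n = 3) in WT (log2 fold change 0.53, edgeR adjusted p = 0.00236) and from 228 ± 5.80 to 312 ± 12.6 CPM in KO (n = 4 each, 0.46, edgeR adjusted p = 0.000249). Dusp1, a phosphatase induced by glucocorticoids and stress, fell from 73.8 ± 18.9 to 27.8 ± 6.28 CPM in KO (n = 4 each, −1.40, edgeR adjusted p = 0.00035), and had 97.4 ± 28.7 CPM in WT spleen (n = 4) and 84.9 ± 53.5 in WT mLN (n = 3), with a log2 fold change of −0.16 (SE 0.35, edgeR adjusted p = 0.785). The interaction for Dusp1 was −1.22 (SE 0.42, edgeR adjusted p = 0.9998).

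The genes most like Rptor and Fnip1, the members with the smallest p between genotypes, were sought by Pearson's r of TMM-scaled log2 CPM over the 15 samples among 9267 genes. For Rptor they were Cramp1l (r = 0.942), March6 (0.932) and Itpkb (0.928). For Fnip1 they were Lcmt2 (0.904), Tmem250-ps (0.876) and H1f0 (0.870). The 15 points share the organ and genotype groups, so the values are descriptions.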

How the data were processed

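RNA of sorted CD4+ T cells was sequenced as 75-base single-end reads. The authors aligned the reads with STAR 2.6.1a to GRCm38 with GENCODE M23 and deposited whole-number counts of uniquely aligned reads per gene and sample, without normalization. The strand that was counted is not given in the sources used here, and multimapping reads were left out, so overlapping genes are uncertain. Between 58.4% and 63.4% of the uniquely aligned reads lay on no gene. GENCODE M21, of the same build, gave names, positions and lengths and named 55240 of 55421 genes, and promoters from RefSeq (GRCm38.p6), where all 10 genes were matched.

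Samples were grouped by the genotype and organ of their labels, which do not say which samples came from the same mouse. By the study's supplement, the samples come from 1 experiment with 4 mice per group. The study also compared T cell receptor clones between spleen and mLN of each mouse. Counts were tested with edgeR 4.0.16 in R 4.3.3 (filter on low counts, TMM, quasi-likelihood test), on the 2 groups of each comparison, with Benjamini-Hochberg adjustment over all genes tested and a limit of 0.05. The interaction was fitted over all 15 samples. The main organ tests and the interaction took spleen and mLN samples as independent, although a mouse probably gave both. Log2 fold changes are edgeR's, with 95% intervals from the SE and the degrees of freedom of the fit. DESeq2 1.42.0, RLE normalization, library size only, no filter, all 15 samples in 1 fit, a replicate block, a fold change minimum and each sample left out were alternatives. A correction for length and GC content, and a block within genotype for the interaction, were chosen after seeing the data. Python 3.11.15, pandas 2.3.3, scipy 1.17.1 and matplotlib 3.10.9 did the rest. The procedures were tested on simulated data.

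The replicate numbers of the labels were taken as pairs where the deviations from the group means of each same-numbered pair correlated above 0.1. This held between the organs in WT (r from 0.243 to 0.291 over 3 pairs) and not between the organs in KO or between genotypes.

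The named genes are the 10 members, Prkaa1, list genes called between genotypes and, for each organ comparison, the 4 list genes with the smallest p, of which 1 is not reported here. Lamtor2, Lamtor5, Rraga, Depdc5, Pik3cd, Pik3ip1, Sesn2, Rps6kb2 and Eif4ebp2 were named after their values were seen. The members and lists were chosen with earlier results of these data known. Of 112 list genes 111 were matched, without Ddit3, which has 2 identifiers.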

Additional observations from a re-analysis of the deposited data

How the results depend on the processing

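Between genotypes the count of the 10 genes past the limit was 0 in spleen and mLN, but 2 and 1 with DESeq2. Without the filter on low counts it was 3 (Ddit4, Sesn3 and Fnip1) and 2 (Ddit4 and Sesn3). Both settings also called more of all genes, 799 and 561 with DESeq2 and 1422 and 913 without the filter, beside 185 and 92. Leaving out each sample gave 0 to 0 in both organs and for the interaction. For mLN against spleen the count of 4 in WT became 1 with the length and GC correction and 1 when a log2 fold change beyond 1 was also required, and lay between 2 and 5 when each sample was left out, the lowest without WT spleen replicate 1 or 2. The count of 5 in KO became 3 with all 15 samples in 1 fit, 3 with the correction and 0 with the fold minimum, and lay between 4 and 6 when each sample was left out. The cause of these changes was not tested, save that the fold minimum removes by construction all log2 fold changes within 1. Among single genes, the call of Ddit4 in KO was lost in 6 of 8 fits that left out a sample, and those of Tsc1 and Rptor in WT in 4 and 3 of 7.

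The replicate block gave 0 genes in both genotype comparisons and in the interaction, with or without a block within genotype, and 5 between organs in KO; beyond the 2 genes it added in WT it changed no other call named here. Over all genes it called 17 in spleen, beside 185 without it, and 1 in mLN, beside 92, between genotypes. The 1 gene in mLN was higher in KO, so Il7r and Tsc22d3, both lower there, lost their calls. Between organs it called 4351 of 14515 genes in WT and 3814 of 14240 in KO. In KO the correlation of same-numbered organs was 0.0258 to 0.26.

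Signs turned for values near 0 that were not called. With library size only, Tsc2 between genotypes in spleen was −0.0092, Rheb between organs in WT −0.0073 and Sesn1 between organs in KO −0.0032. With the correction, Sesn1 and Fnip1 between organs in WT were 0.041 and 0.14, and Rheb in KO 0.063. Without the filter, Sesn1 and Fnip1 between organs in KO were −0.012 and −0.0014. When each sample was left out, the ranges that crossed 0 in spleen between genotypes were −0.054 to 0.071 for Tsc2, −0.10 to 0.16 for Sesn1 and −0.0010 to 0.19 for Flcn, and in mLN −0.088 to 0.21 for Tsc1, −0.28 to 0.034 for Tsc2 and −0.059 to 0.31 for Sesn1. Between organs they were −0.0093 to 0.073 for Rheb and −0.25 to 0.11 for Sesn1 in WT. In KO they were −0.068 to 0.027 for Rheb, −0.12 to 0.15 for Sesn1 and −0.033 to 0.077 for Fnip1. Of the log2 fold changes of single genes, 247 under other settings and 259 with a sample left out kept their direction and side of the limit. Under other settings 8 turned sign, 17 became called and 8 lost a call. With a sample left out these numbers were 26, 2 and 13.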
